A study of Mus musculus with 15 samples.

Results

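The urea cycle and the amino acid catabolism that feeds it were followed in mouse liver through 44 genes, chosen by their names from the 21702 protein-coding genes counted in whole-liver RNA. All 44 were found in the count table, and all 44 passed the filter on low counts, as did 12172 genes in all. The livers came from female wild-type C57BL/6 mice (named C57BL/6N in the study's methods) in 5 groups of 3. AAV8-null mice, which received an adeno-associated virus without a gene, were sampled non-pregnant (NP), at 8 dpc (days post-coitum) and at 16 dpc. AAV8-p21 mice, which received the virus with the cDNA of the cell cycle inhibitor p21, were sampled at 8 dpc and at 16 dpc, and no NP group of AAV8-p21 mice was analysed here. Both viruses carry the TBG promoter, which acts in hepatocytes, and were injected into the tail vein of adult virgin mice before mating, so every group including the NP controls had received a virus. The studied question was how a block of hepatocyte division in early to mid-gestation changes the maternal liver.

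Amino acids that are not built into protein lose their nitrogen in the liver. Transaminases and glutaminase move it to glutamate and ammonia, carbamoyl phosphate synthetase (Cps1) fixes the ammonia inside mitochondria, and the enzymes of the urea cycle, among them Otc, Ass1 and Asl, turn it into urea. Nags makes the N-acetylglutamate that Cps1 needs, and Slc25a15 carries ornithine into the mitochondrion. Most of these enzymes are strongest in hepatocytes near the portal vein, and their genes are known to answer to glucagon, glucocorticoids and dietary protein. Pregnancy is known as a state in which the mother spares amino acid nitrogen for the growth of the conceptus.

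The start sites of 34 of the 44 genes were matched by symbol in a RefSeq table of promoters (GRCm38.p6), which holds 32851 windows of 300 bases, from 250 before to 50 after the start. The 250 bases before the start are shown for Hal, the histidase gene, which was lower at 16 dpc, and for Gldc, the glycine decarboxylase gene, the single gene that passed as higher, so that both directions are represented. The Hal stretch is chr10:93488518-93488767 on the plus strand, and the Gldc stretch is chr19:30175442-30175691 on the minus strand. Both run 5′ to 3′ toward the start, and capitals mark matches to the motifs searched.
Hal: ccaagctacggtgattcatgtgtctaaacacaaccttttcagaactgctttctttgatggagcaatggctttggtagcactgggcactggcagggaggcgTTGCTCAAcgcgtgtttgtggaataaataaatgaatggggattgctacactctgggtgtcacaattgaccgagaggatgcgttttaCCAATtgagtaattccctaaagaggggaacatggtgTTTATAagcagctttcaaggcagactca
Gldc: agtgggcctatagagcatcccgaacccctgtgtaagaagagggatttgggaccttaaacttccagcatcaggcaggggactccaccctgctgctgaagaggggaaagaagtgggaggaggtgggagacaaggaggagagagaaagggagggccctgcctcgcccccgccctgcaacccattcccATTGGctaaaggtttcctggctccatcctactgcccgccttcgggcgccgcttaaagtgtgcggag

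In the Hal stretch the capitals are a match to TTGCNNAA, the motif of C/EBP factors, at bases 101 to 108, to CCAAT at bases 187 to 191 and to TATAAA on the other strand at bases 223 to 228. In the Gldc stretch they are CCAAT on the other strand at bases 185 to 189. Each motif was searched on both strands of the whole window, and no 2 of the matches shown overlap. CCAAT was present in 15 of the 34 windows (44.1%) and in 37.4% of all windows of the table. TATAAA was present in 4 of 34 (11.8%), in those of Hal, Ftcd, Hgd and Tdo2, and in 13.6% of all windows. TTGCNNAA was present in 3 of 34 (8.82%) and in 10.8% of all. GTTAAT, an HNF1 motif, was in 3 (8.82%) and in 7.1%. AGAACA, which is contained in sites of the glucocorticoid receptor, was in 5 (14.7%) and in 19.0%. TGACGTCA, the cAMP response element, and CAAAGTCCA, an HNF4 motif, were in 0 of the 34 windows and in 1.79% and 0.475% of all windows, which says only that these letters are absent from the windows. These shares are descriptions and name no site or factor.

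Total counts per library lay between 12280709 and 17615185, and levels are given as CPM, read counts scaled to library size after TMM normalization in edgeR, so that a few very abundant genes do not shift the others. Cdkn1a, the gene of p21, was at 347 to 1664 CPM in AAV8-p21 and at 3.29 to 127 CPM in AAV8-null livers. Of 5 hepatocyte markers tested, Alb, Apoa1 and Fgb passed as higher and Ttr as lower from NP to 16 dpc in AAV8-null livers, and Hnf4a did not pass. Of 5 markers for each other cell type, the summed levels of cholangiocyte markers were 19.7 to 31.4 CPM in NP and 8.41 to 17.3 CPM in AAV8-null livers at 16 dpc. The sums of erythroid markers were 49.6 to 99.7 and 109 to 169 CPM, with Alas2 and Hbb-bs past the test as higher. At 16 dpc the cholangiocyte sum was 19.6 to 43.0 CPM in AAV8-p21 livers, above the AAV8-null livers, with 0 of 5 past the test. Endothelial markers summed to 113 to 211 CPM in NP, 81.3 to 113 at 8 dpc and 160 to 215 CPM at 16 dpc in AAV8-null livers. Stellate cell markers summed to 162 to 187, 86.8 to 141 and 172 to 248 CPM, with Lrat past the test as lower from NP to 16 dpc. Kupffer cell, lymphocyte and pancreas markers overlapped between NP and 16 dpc, and the pancreas marker Pnlip had 0 counts in all 15 libraries. The part of these cells in the results was not tested. In whole liver, fewer hepatocytes and less RNA per hepatocyte cannot be told apart.

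The 44 genes together took a smaller share of the counts at 16 dpc than in NP livers in AAV8-null mice. They held 2.41, 3.28 and 3.63% of all counts in the 3 NP livers, 2.73, 2.54 and 2.83% in AAV8-null livers at 8 dpc, and 1.42, 1.43 and 1.86% at 16 dpc. Every AAV8-null liver at 16 dpc was below every NP and 8 dpc liver of the same virus. In AAV8-p21 livers the share was 2.95, 2.36 and 2.25% at 8 dpc and 1.56, 1.47 and 2.35% at 16 dpc, where the stages overlapped through a single liver. Alb, the albumin gene, held 9.76 to 10.8% of the counts in NP livers and 23.5 to 27.8% in AAV8-null livers at 16 dpc, without overlap. With Alb left out of the total, the 44 genes held 2.70 to 4.07% in NP and 1.95 to 2.43% in AAV8-null livers at 16 dpc. After TMM scaling the summed levels overlapped, with 21166 to 31168 CPM in NP and 19951 to 22544 CPM in AAV8-null livers at 16 dpc.

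**Figure D1:**
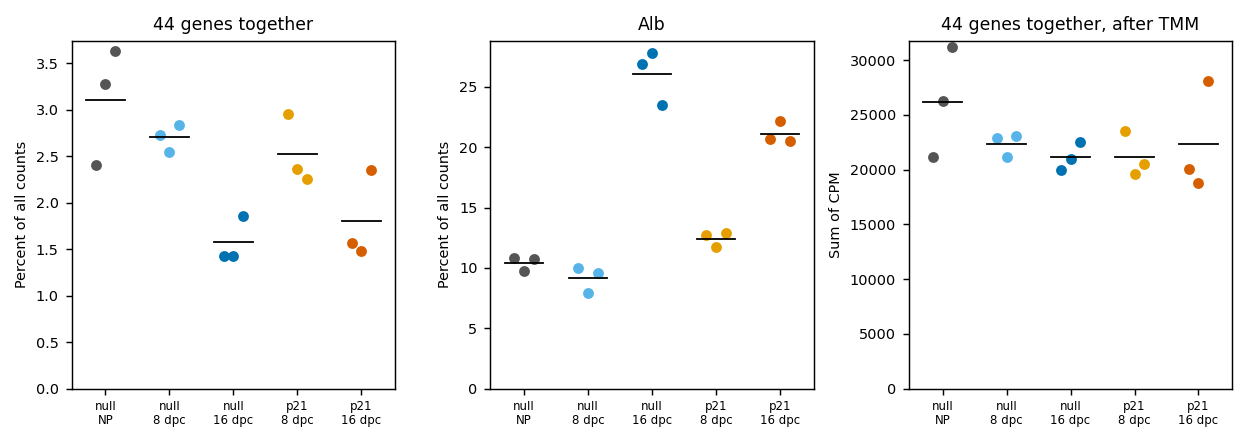
Share of all counts held by the 44 genes (left, percent), by Alb (middle, percent) and the summed TMM-normalized CPM of the 44 genes (right), with a point per liver, 3 livers per group and a line at the group mean (null, AAV8-null and p21, AAV8-p21). The share of the 44 genes is lowest at 16 dpc, at 1.42 to 1.86% in AAV8-null livers, where Alb is at 23.5 to 27.8%, and the summed CPM overlap between groups.

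Among single genes, most changes between NP and 16 dpc in AAV8-null livers were falls. Gls2, Gpt, Hal, Prodh and Ass1 fell and Gldc rose, which are 5 lower (11.4%) and 1 higher (2.27%) of the 44 genes in edgeR's quasi-likelihood test with an adjusted p under 0.05. Over all 12172 genes, 2.82% were lower and 3.71% higher by the same test. Of the 44 genes, 36 (81.8%) had a log2 fold change below 0, against 52.5% of all genes, and the median was −0.26 against −0.03 for all genes. The 3 livers of 16 dpc lay wholly above or below the 3 NP livers for 12 of the 44 genes (27.3%), 10 lower and 2 higher, which is close to the 24.6% of all genes. Scaled to total counts alone, 33 of the 44 genes passed as lower and 0 as higher. The share of all genes that passed with this scaling is not given here, so this count is not read as a result about these genes. With this scaling the median of the 44 genes was −0.93 and that of all genes −0.70. Relative to all genes the members were lower by a median of −0.23 with this scaling and of −0.24 with TMM. Without the NP liver 3 the median was −0.16, and −0.14 relative to all genes. The count of 6 was 3 without the NP liver 2, without the NP liver 3 or without the AAV8-null liver 2 of 16 dpc, and up to 8 in the other fits with a liver left out.

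**Figure D2:**
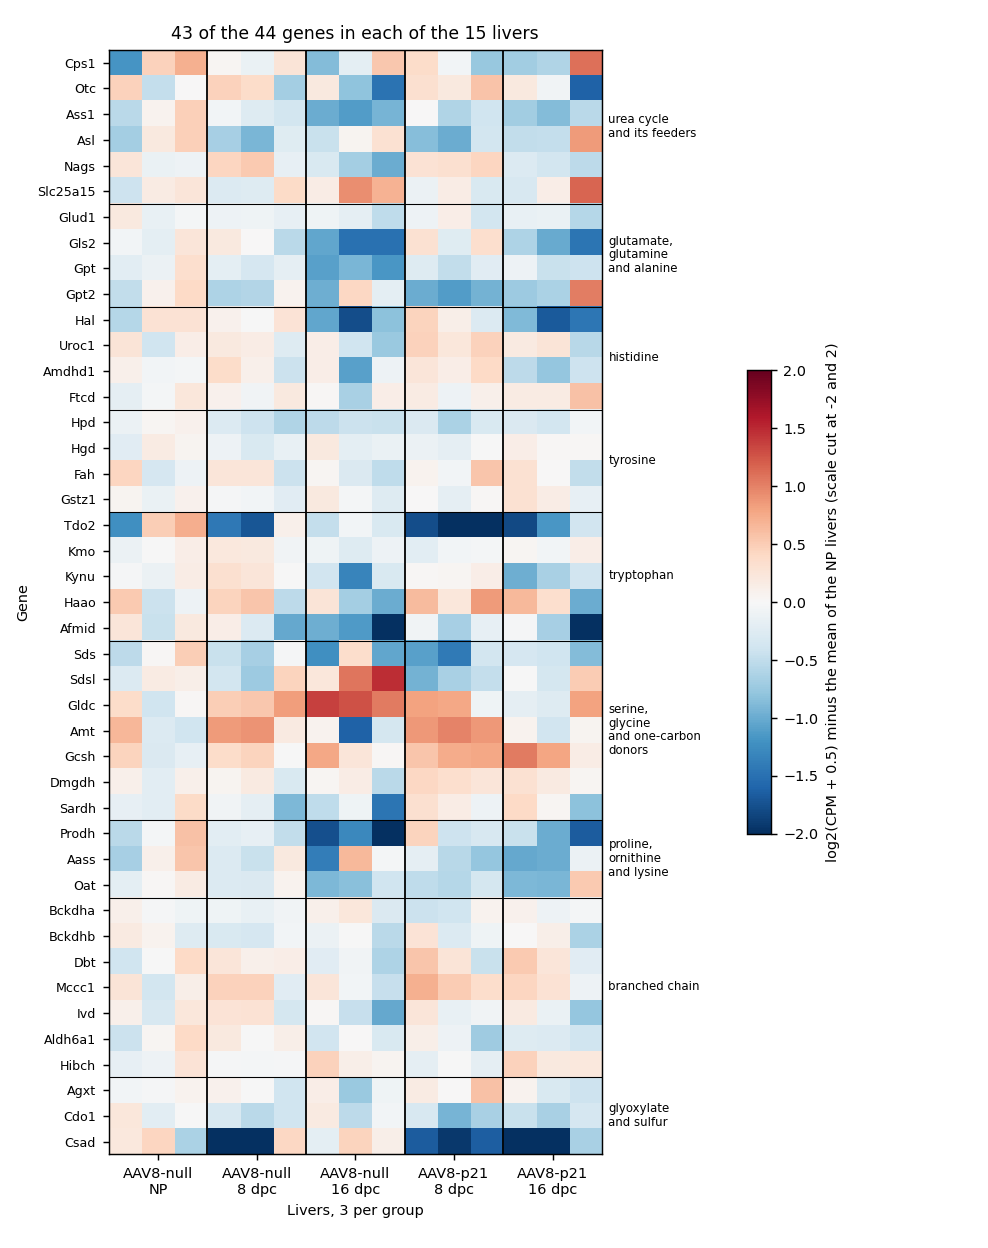
Level of 43 of the 44 genes (rows, grouped by role) in each of the 15 livers (columns, 3 per group), as log2(CPM + 0.5) minus the mean of the 3 NP livers, with red for higher and blue for lower. Gls2, Gpt, Hal, Prodh and Ass1 are blue and Gldc is red in all 3 AAV8-null livers at 16 dpc, while Cps1 spans 1313 to 4869 CPM within the NP livers alone.

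Within the urea cycle, Ass1 was the gene that fell. Of the 7 genes of the cycle and its feeders, 1 passed as lower between NP and 16 dpc in AAV8-null livers and 0 passed as higher, with 5 log2 fold changes below 0 and 2 above 0. Ass1 is argininosuccinate synthetase, which joins citrulline and aspartate (ENSMUSG00000076441, GRCm38 chromosome 2 from 31470207 to 31520672, plus strand). Ass1 was at 1411, 2148 and 2869 CPM in NP livers, at 1980.3, 1716 and 1599 CPM at 8 dpc and 1034, 945 and 1083 CPM at 16 dpc in AAV8-null livers. AAV8-p21 livers held 2061, 1362 and 1563 CPM at 8 dpc and 1276, 1131 and 1415 CPM at 16 dpc. The 16 dpc livers of the AAV8-null group lay below all other livers of the study. Between NP and 16 dpc the log2 fold change came to −1.07 (standard error 0.25, adjusted p = 0.0192). The test was no longer passed without the NP liver 2 or 3, without the AAV8-null liver 2 or 3 of 16 dpc, or with these 2 groups fitted alone (adjusted p = 0.0881, and 0.000508 to 0.0881 over 9 alternatives). In AAV8-p21 livers at 16 dpc against NP it was −0.75 (standard error 0.25, adjusted p = 0.121, and 0.00178 to 0.282 over 7 alternatives). From 8 dpc to 16 dpc in AAV8-null livers it was −0.79 without overlap (standard error 0.25, adjusted p = 0.0691, and 0.00105 to 0.1195 over 9 alternatives). In both of these comparisons Ass1 was called by the DESeq2 Wald test and limma voom.

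Cps1, which fixes ammonia (ENSMUSG00000025991, chromosome 1 from 67123026 to 67231259, plus strand), had the largest SD of log2 CPM within groups of the 7 genes (0.765, against 0.254 to 0.683 for the other 6). It was at 1313, 4058 and 4869 CPM in NP livers, at 3026, 2686 and 3531 CPM at 8 dpc and 1615, 2581 and 4307 CPM at 16 dpc in AAV8-null livers. The values were 3836, 2851 and 1748 CPM and then 1837, 1955 and 6341 CPM in those with AAV8-p21. All 5 groups overlapped. Its log2 fold change between NP and 16 dpc in AAV8-null livers was −0.27 (standard error 0.53, adjusted p = 0.823). Otc, which makes citrulline, was at 608, 319.9 and 448 CPM in NP and 508, 252 and 159 CPM in AAV8-null livers at 16 dpc, with 613, 570.4 and 277 CPM at 8 dpc. AAV8-p21 livers held 551, 510.1 and 660.3 CPM at 8 dpc and 509, 424 and 143 CPM at 16 dpc, and Otc passed no stage comparison in edgeR's quasi-likelihood test (log2 fold change from NP to 16 dpc −0.58, standard error 0.47, adjusted p = 0.520). Scaled to total counts alone, that change was −1.27 with an adjusted p of 0.0275 (0.0275 to 0.562 over 9 alternatives).

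From NP to 16 dpc in AAV8-null livers, the point estimates of Asl and of the ornithine carrier were near or above 0. Asl, argininosuccinate lyase, was at 487, 889 and 1081 CPM in NP, 488, 410.4 and 655 CPM at 8 dpc and 573, 809 and 962 CPM at 16 dpc in AAV8-null livers. The AAV8-p21 values were 429.5, 390.3 and 599 and then 549, 559 and 1408 CPM. Slc25a15, at the same 3 stages, was at 271, 405 and 427 CPM, 299, 303 and 469.6 CPM and 399, 686 and 584 CPM in AAV8-null livers. AAV8-p21 livers held 331, 400.3 and 292 and then 288, 396 and 811 CPM. Neither passed between stages in edgeR's quasi-likelihood test, where Asl at 8 dpc against NP in AAV8-null livers had a log2 fold change of −0.66 (standard error 0.38, adjusted p = 0.903). Limma voom called Asl as lower there (−0.98). From NP to 16 dpc in AAV8-null livers the log2 fold changes were −0.07 for Asl (standard error 0.38, adjusted p = 0.948) and 0.60 for Slc25a15 (0.35, adjusted p = 0.347). Scaling to total counts alone gave −0.09 for Slc25a15.

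Nags, which makes the activator of Cps1 (ENSMUSG00000048217, chromosome 11 from 102145513 to 102149477, plus strand), was low at all stages and lowest at 16 dpc. It was at 65.2, 49.8 and 51.0 CPM in NP, 74.2, 79.0 and 49.1 CPM at 8 dpc and 44.4, 34.2 and 27.4 CPM at 16 dpc in AAV8-null livers. AAV8-p21 livers held 67.0, 68.9 and 74.2 CPM at 8 dpc and 45.5, 42.2 and 38.0 CPM at 16 dpc. No liver of 16 dpc reached any NP or 8 dpc liver of the study. From 8 dpc Nags fell by 0.93 on the log2 scale in AAV8-null livers (standard error 0.21, adjusted p = 0.0197). The log2 fold change was −0.74 in AAV8-p21 livers (standard error 0.21, adjusted p = 0.0747) and −0.65 from NP to 16 dpc in AAV8-null livers (standard error 0.21, adjusted p = 0.0912). Nags was called by the DESeq2 Wald test and limma voom in the former (adjusted p 0.00127 to 0.0859 over 7 alternatives), and limma voom in the latter. The fall from 8 dpc no longer passed without the AAV8-null liver 1 or 2 of 8 dpc, without liver 2 or 3 of 16 dpc, or with the 2 groups fitted alone (adjusted p = 0.0917, and 0.000108 to 0.0917 over 9 alternatives).

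**Figure D3:**
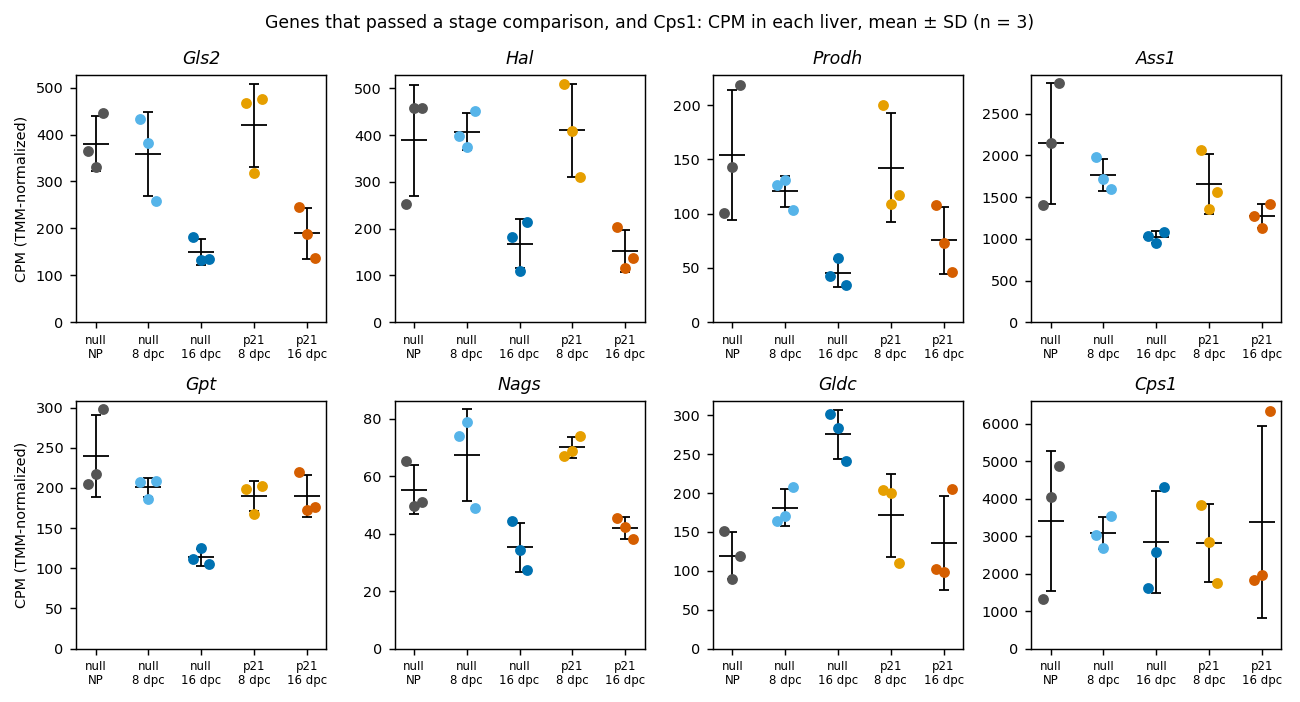
TMM-normalized CPM (vertical axes from 0) of the 7 genes that passed a comparison between stages, and of Cps1, in each liver (points, 3 per group) with the group mean and SD (bars). By group mean, Gls2, Prodh, Ass1, Gpt and Nags are lowest and Gldc is highest in AAV8-null livers at 16 dpc, and Hal is lowest in AAV8-p21 livers at 16 dpc, while Cps1 spans 1313 to 6341 CPM with all groups overlapping.

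Among the genes of glutamate, glutamine and alanine, 2 of 4 fell between NP and 16 dpc in AAV8-null livers, and all 4 log2 fold changes were below 0. Gls2, the liver glutaminase, which frees ammonia from glutamine (ENSMUSG00000044005, chromosome 10 from 128194457 to 128210004, plus strand), was at 365, 331 and 446 CPM in NP, 434, 382 and 259 CPM at 8 dpc and 183, 133 and 134 CPM at 16 dpc. AAV8-p21 livers held 467, 318 and 475 CPM at 8 dpc and 246, 187 and 136 CPM at 16 dpc. Every liver of 16 dpc, with either virus, was below every NP and 8 dpc liver. The log2 fold change was −1.34 from NP to 16 dpc (standard error 0.27, adjusted p = 0.00842) and −1.26 from 8 dpc to 16 dpc (0.26, adjusted p = 0.0130) in AAV8-null livers. It was −1.15 from 8 dpc to 16 dpc in AAV8-p21 livers (0.26, adjusted p = 0.0293) and −1.0 in AAV8-p21 livers at 16 dpc against NP (0.26, adjusted p = 0.0485). The first of these passed in all 15 fits that left out a liver. The second passed in 11 and was lost without the AAV8-null liver 1 or 2 of 8 dpc or 2 or 3 of 16 dpc. The third also passed in 11, and was lost without the AAV8-p21 liver 1 or 3 of 8 dpc or the second or the third AAV8-p21 library of 16 dpc. The last passed in 4 of the 15 (adjusted p up to 0.172), those without the AAV8-null liver 3 of 8 dpc or 1 of 16 dpc, the AAV8-p21 liver 2 of 8 dpc or the first AAV8-p21 library of 16 dpc, and was lost in the other 11. With the compared groups fitted alone, the third had an adjusted p of 0.0607 (0.00112 to 0.0607 over 7 alternatives) and the last of 0.109 (0.00154 to 0.109 over 7 alternatives). Of its exon bases, 2.79% lie under an exon of Spryd4 on the other strand.

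Gpt, the alanine transaminase, which joins alanine to glutamate (ENSMUSG00000022546, chromosome 15 from 76695716 to 76699686, plus strand), fell at 16 dpc in AAV8-null livers. The values were 204, 217 and 299 CPM in NP, 207, 187 and 208 CPM at 8 dpc and 111, 125 and 105 CPM at 16 dpc in AAV8-null livers. AAV8-p21 livers held 199, 168 and 202 CPM at 8 dpc and 219.5, 173 and 177 CPM at 16 dpc. The 3 AAV8-null livers of 16 dpc stood below all other 12 livers, and the AAV8-p21 livers of 16 dpc overlapped those of 8 dpc. The log2 fold change in AAV8-null livers was −1.08 from NP to 16 dpc (standard error 0.18, adjusted p = 0.00300), and it passed in all 15 fits with a liver left out. It was −0.82 from 8 dpc to 16 dpc (0.18, adjusted p = 0.0176), which was lost without the AAV8-null liver 1 of 8 dpc or 3 of 16 dpc. Its isoenzyme gene Gpt2 was at 385, 576 and 718 CPM in NP and at 276, 725 and 475 CPM at 16 dpc. Glud1, glutamate dehydrogenase, was at 1096, 862 and 926 and at 903, 848 and 673 CPM, and neither passed.

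Histidine is broken down by Hal, Uroc1, Amdhd1 and Ftcd, and in edgeR's quasi-likelihood test the gene of the first step alone passed. Hal, histidase (ENSMUSG00000020017, chromosome 10 from 93488768 to 93519304, plus strand, the first of the 2 genes whose upstream bases are printed above), was at 253, 458 and 458 CPM in NP, 397, 374 and 452 CPM at 8 dpc and 182, 109.6 and 213 CPM at 16 dpc in AAV8-null livers. AAV8-p21 livers held 509, 409 and 311 CPM at 8 dpc and 203, 116 and 137 CPM at 16 dpc. No liver of 16 dpc reached any NP or 8 dpc liver. The log2 fold changes were −1.21 from NP to 16 dpc (standard error 0.30, adjusted p = 0.0288) and −1.28 from 8 dpc to 16 dpc (0.30, adjusted p = 0.0236) in AAV8-null livers. They were −1.43 from 8 dpc to 16 dpc in AAV8-p21 livers (0.31, adjusted p = 0.0193) and −1.36 in AAV8-p21 livers at 16 dpc against NP (0.31, adjusted p = 0.0229). Each of them passed in 11 or 12 of the 15 fits with a liver left out. The fall from NP in AAV8-null livers was lost without the NP liver 2 or 3 or the AAV8-null liver 1 or 2 of 16 dpc, and had an adjusted p of 0.0944 with the 2 groups fitted alone (0.00135 to 0.0944 over 9 alternatives). The fall from 8 dpc in AAV8-null livers was lost without liver 1 or 2 of 8 dpc or liver 2 of 16 dpc. The later enzymes stayed in overlapping ranges between NP and AAV8-null 16 dpc livers, with Uroc1 at 244 to 385 and 191 to 350.2 CPM, Amdhd1 at 174 to 194 and 85.1 to 198 CPM, and Ftcd at 225 to 298 and 163 to 279 CPM. In AAV8-p21 livers Amdhd1 was at 214, 198 and 237 CPM at 8 dpc and 126, 105 and 135 CPM at 16 dpc, where it lay below the AAV8-p21 livers of 8 dpc and the NP livers. The differences at 16 dpc were −0.83 on the log2 scale against 8 dpc (standard error 0.27, adjusted p = 0.122) and −0.57 against NP (0.27, adjusted p = 0.320). Limma voom called Amdhd1 in both comparisons.

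Prodh, proline dehydrogenase, had the largest fall of the 44 genes between NP and 16 dpc in AAV8-null livers (ENSMUSG00000003526, chromosome 16 from 18060357 to 18090203, minus strand). It was at 100.4, 143 and 219 CPM in NP, 127, 131 and 104 CPM at 8 dpc and 43.1, 59.5 and 34.4 CPM at 16 dpc. AAV8-p21 livers held 200.0, 109 and 117 CPM at 8 dpc and 108, 73.1 and 45.9 CPM at 16 dpc. The 16 dpc livers of AAV8-null mice were below all NP and 8 dpc livers, and those of AAV8-p21 mice overlapped with the NP livers. The log2 fold change was −1.75 from NP to 16 dpc (standard error 0.35, adjusted p = 0.00951, passed in all 15 fits with a liver left out) and −1.40 from 8 dpc to 16 dpc (0.35, adjusted p = 0.0295) in AAV8-null livers, the latter lost without liver 1 or 2 of 8 dpc or liver 1 or 3 of 16 dpc. In AAV8-p21 livers at 16 dpc it was −0.91 against 8 dpc (0.35, adjusted p = 0.187) and −1.03 against NP (0.35, adjusted p = 0.133). Oat, ornithine aminotransferase, which also feeds the pool of proline and glutamate, was at 1576, 1831 and 2021 CPM in NP and 964, 1012 and 1371 CPM in AAV8-null livers at 16 dpc without overlap (a log2 fold change of −0.70, standard error 0.33, adjusted p = 0.236). Aass, the first enzyme of lysine breakdown, was at 223 to 520.0 and 135 to 553 CPM.

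Gldc, the decarboxylase of the glycine cleavage system (ENSMUSG00000024827, chromosome 19 from 30098447 to 30175429, minus strand, the second gene of the printed stretches), was the single gene of the 44 that rose from NP to 16 dpc in AAV8-null livers. The values were 151, 89.1 and 119 CPM in NP, 165, 171 and 208 CPM at 8 dpc and 302, 284 and 241 CPM at 16 dpc in AAV8-null livers. AAV8-p21 livers held 205, 200.3 and 109.8 CPM at 8 dpc and 103, 98.3 and 205 CPM at 16 dpc. The AAV8-null livers of 16 dpc were above all other livers. From NP to 16 dpc the log2 fold change came to 1.20 (standard error 0.31, adjusted p = 0.0309). It was 0.53 with scaling to total counts alone, where it did not pass (adjusted p = 0.169, and 0.00116 to 0.169 over 9 alternatives). It passed in 10 of the 15 fits with a liver left out and failed without the NP liver 2 or 3 or without any of the 3 AAV8-null livers of 16 dpc. The other proteins of the system did not pass, with Amt at 29.2 to 61.4 CPM in NP and 12.2 to 40.3 CPM in AAV8-null livers at 16 dpc and Gcsh at 63.4 to 106 and 79.0 to 132 CPM. Sdsl, a serine dehydratase-like gene, was at 6.86, 9.50 and 9.16 CPM and 9.98, 18.2 and 24.2 CPM without overlap (a log2 fold change of 1.04, standard error 0.36, adjusted p = 0.104). Sds, serine dehydratase, was at 106 to 215 and 64.9 to 193 CPM, and limma voom called it as lower. Dmgdh and Sardh, the dehydrogenases of dimethylglycine and sarcosine, were at 394 to 489.7 and 314 to 502 CPM and at 719 to 1076 and 299.6 to 782 CPM.

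No gene of tyrosine, tryptophan, branched-chain, glyoxylate or sulfur metabolism passed between NP and 16 dpc in AAV8-null livers in edgeR's quasi-likelihood test. Hpd, which oxidizes hydroxyphenylpyruvate and had the highest level per kilobase of exon among the 44 genes in NP livers, was at 2382, 2659 and 2766 CPM in NP and at 1812, 1936 and 1910.0 CPM at 16 dpc, without overlap. Its log2 fold change was −0.46 with a standard error of 0.18 (adjusted p = 0.157), and it passed in the DESeq2 Wald test and in limma voom. These 2 tests called 7 and 9 of the 44 genes, among 1207 and 1602 of all genes. Hgd, Fah and Gstz1, the next steps for tyrosine, were at 597 to 786 and 613 to 800.4 CPM, 387 to 657 and 341 to 499.7 CPM, and 582 to 677 and 536 to 730.4 CPM. In the tryptophan pathway, Afmid, kynurenine formamidase, was at 146, 90.5 and 141 CPM in NP and at 62.4, 55.9 and 19.3 CPM at 16 dpc (a log2 fold change of −1.45, standard error 0.57, adjusted p = 0.159). Of its exon bases, 46.6% are shared with other genes on both strands, Tk1 among them. Kynu, kynureninase, was at 126 to 152 CPM in NP and 54.7 to 111 CPM at 16 dpc, also without overlap. Kmo, kynurenine monooxygenase, was at 268 to 318 and 242 to 273 CPM, and Haao, which opens the ring of hydroxyanthranilate, at 219 to 423 and 148 to 353 CPM. Tdo2, which opens the indole ring, was at 542, 1791 and 2115 CPM in NP and at 916, 1227 and 1027 CPM at 16 dpc (a log2 fold change of −0.49, standard error 0.52, adjusted p = 0.640).

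The 7 branched-chain genes had log2 fold changes from −0.44 to 0.21. Ivd, isovaleryl-CoA dehydrogenase, had the lowest of them and was at 203, 151 and 221 CPM in NP and 192, 138 and 93.3 CPM in AAV8-null livers at 16 dpc. Bckdha and Bckdhb, subunits of the branched-chain ketoacid dehydrogenase, were at 194 to 219 and 168 to 240.4 CPM and at 54.8 to 74.9 and 45.3 to 65.1 CPM. Of the exon bases of Bckdha, 61.7% lie under exons of B3gnt8 on the other strand. Dbt was at 55.96 to 97.5 and 48.1 to 70.4 CPM and Mccc1 at 32.8 to 51.0 and 30.7 to 50.8 CPM. Aldh6a1 was at 299 to 531 and 310.3 to 404 CPM and Hibch at 71.5 to 97.5 and 84.0 to 111 CPM, so that all 7 overlapped between the groups. Agxt, which detoxifies glyoxylate, was at 417, 427 and 456 CPM in NP and at 474, 260.1 and 407 CPM at 16 dpc. Cdo1, cysteine dioxygenase, was at 1435 to 1940.2 CPM in NP and 1159 to 1888 CPM at 16 dpc.

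None of the 44 genes passed in AAV8-null livers at 8 dpc against NP in edgeR's quasi-likelihood test, where 0% of all 12172 genes passed, and 1 of the 44 had an unadjusted p under 0.05 (803 of all genes). The DESeq2 Wald test called 0 and limma voom 8 of the 44 genes, among 66 and 1850 of all genes. The 8 were Amt, Gcsh, Gldc and Nags as higher and Asl, Csad, Hpd and Tdo2 as lower. The median log2 fold change was −0.09, with 27 genes below and 17 above 0. Without the NP liver 3 it turned to 0.02, with 21 below and 23 above 0. Between 8 dpc and 16 dpc in AAV8-null livers, Gls2, Gpt, Nags, Hal and Prodh fell (5 of 44, 11.4%) and 0 rose, where 3.71% of all genes were lower and 3.16% higher. Their values are given with each gene above. The DESeq2 Wald test and limma voom called these 5 and also Amt, Ass1 and Kynu as lower and Sdsl as higher, and limma voom called Csad as higher. These were 9 and 10 of the 44 genes, among 1358 and 1707 of all genes. The count of 5 rested on single livers, and it was 0 without the AAV8-null liver 1 of 8 dpc, 1 without liver 2 of 8 dpc or liver 3 of 16 dpc, 2 without liver 2 of 16 dpc and 9 without liver 3 of 8 dpc. Endothelial and stellate cell markers also moved over this step, with 2 of 5 (Pecam1, Clec4g) and 1 of 5 (Dcn) past the test as higher.

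The same step was measured a second time, in AAV8-p21 livers, which share no library with the AAV8-null livers. Gls2 and Hal fell there too, which are 2 of 44 genes (4.55%), and 0 rose, where 1.23% of all genes were lower and 2.09% higher. Limma voom also called Nags, Amt, Kynu, Amdhd1 and Gldc as lower there, and the DESeq2 Wald test Nags. In all, the DESeq2 Wald test called 3 and limma voom 7 of the 44 genes, among 797 and 1817 of all 12172 genes. The log2 fold changes of the 44 genes in both virus groups had the same sign for 33 genes (75.0%), 20 lower and 13 higher at 16 dpc, against 75.6% of all 12172 genes. Across the 44 genes, which are not independent of each other, Pearson's correlation of the 2 sets of changes was 0.79 and Spearman's 0.77, and over all genes these were 0.751 and 0.680. The count of 2 was 0 without the AAV8-p21 liver 1 of 8 dpc, or without the second or the third AAV8-p21 library of 16 dpc as the table lists them, 1 without liver 2 or 3 of 8 dpc, and 4 without the AAV8-null liver 2 of 16 dpc. Against the NP livers of the AAV8-null group, AAV8-p21 livers at 16 dpc had the same 2 genes lower and 0 higher, where 1.17% of all genes were lower and 2.65% higher. Limma voom also called Ass1, Aass, Amdhd1, Csad, Kynu, Oat, Prodh and Tdo2 as lower and Gcsh as higher, and the DESeq2 Wald test Ass1. In this comparison the DESeq2 Wald test called 3 and limma voom 11 of the 44 genes, among 804 and 2317 of all genes. The count of 2 against NP in edgeR's test was 0 without the NP liver 2 or 3 or the second AAV8-p21 library of 16 dpc. Without the third of these libraries neither Gls2 nor Hal passed and Oat did. The count was 1, Hal, without the AAV8-null liver 1 or 2 of 8 dpc or 2 or 3 of 16 dpc, or without the AAV8-p21 liver 1 or 3 of 8 dpc. From 8 dpc to 16 dpc in AAV8-p21 livers, 2 of 5 hepatocyte and 1 of 5 erythroid markers passed as higher. Endothelial sums were 106 to 140 and then 158 to 173 CPM, and pancreas sums 16.7 to 22.1 and then 5.97 to 10.7 CPM. Neither of these 2 types had a marker past the test.

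**Figure D4:**
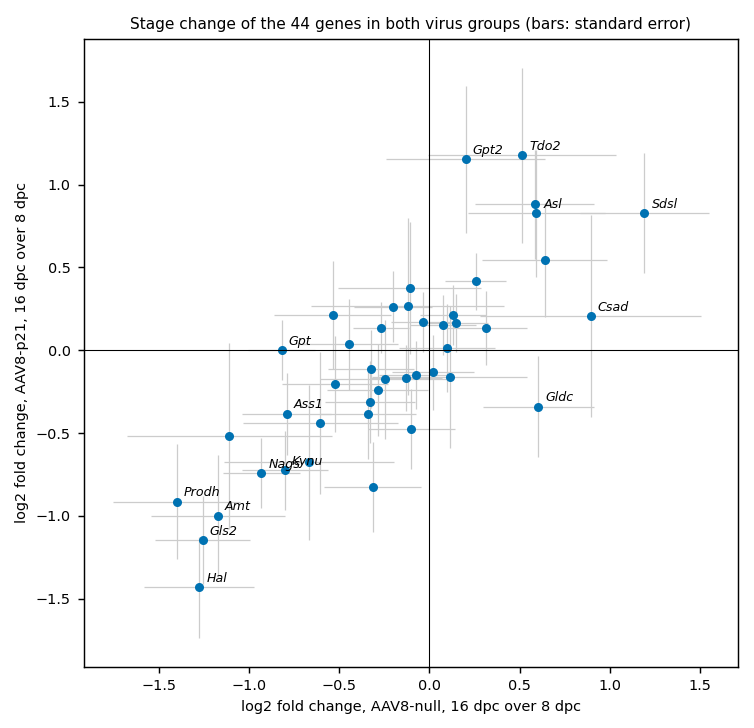
Log2 fold change from 8 dpc to 16 dpc of the 44 genes in AAV8-null livers (horizontal axis) and in AAV8-p21 livers (vertical axis), with standard errors as bars and the genes of the text named. Hal, Gls2, Prodh, Nags and Amt lie at the lower left, Gpt lies at 0 on the vertical axis, Gldc lies to the lower right, and 33 of the 44 genes have the same sign on both axes.

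Whether p21 in hepatocytes changed these genes was tested at both stages. At 16 dpc, none of the 44 genes passed between AAV8-p21 and AAV8-null livers in edgeR's quasi-likelihood test, where 0.0739% of all genes (9) passed. The DESeq2 Wald test called 1 and limma voom 2 of the 44 genes, among 135 and 117 of all genes. In edgeR's fit, 28 of the 44 had a log2 fold change above 0 (median 0.20, against 0.00 for all genes). The median was 0.077 without the first and 0.13 without the third AAV8-p21 library of 16 dpc, in the order in which values are listed here, and 0.091 without the AAV8-null liver 3. Scaled to total counts alone it was 0.31, and that of all genes 0.11. An unadjusted p under 0.05 was reached by 4 of the 44 genes and by 1189 of all 12172, and the groups did not overlap for 7 of the 44 (15.9%), 5 higher and 2 lower, against 13.7% of all genes. The 5 were Gpt, Ass1, Ftcd, Hpd and Kmo, and the 2 were Gldc and Csad. The largest estimate against its error was that of Gpt, with 219.5, 173 and 177 CPM in AAV8-p21 and 111, 125 and 105 CPM in AAV8-null livers (log2 fold change 0.74, standard error 0.18, adjusted p = 0.147, and 0.00785 to 0.348 over 7 alternatives). It passed in the DESeq2 Wald test alone.

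Gldc was at 103, 98.3 and 205 CPM in AAV8-p21 and 302, 284 and 241 CPM in AAV8-null livers at 16 dpc (log2 fold change −1.02, standard error 0.31, adjusted p = 0.257, and 0.0248 to 0.427 over 7 alternatives). Csad, which makes hypotaurine on the way to taurine, was at 31.8, 38.7 and 115 CPM against 157, 247 and 196 CPM (a log2 fold change of −1.70, standard error 0.63, adjusted p = 0.387, and 0.0430 to 0.399 over 7 alternatives). Both passed in limma voom alone. Csad also varied within other groups, with 209, 243 and 116 CPM in NP and 43.1, 38.5 and 242 CPM in AAV8-null livers at 8 dpc. It was at 56.3, 47.0 and 57.4 CPM in AAV8-p21 livers at 8 dpc. Of its exon bases, 7.26% lie under exons of Zfp740 on the other strand. Prodh had a log2 fold change of 0.73 (standard error 0.35, adjusted p = 0.518), Sdsl of −0.96 (0.36, adjusted p = 0.390), Tdo2 of −0.73 (0.52, adjusted p = 0.674). Gls2 had one of 0.34 (0.26, adjusted p = 0.702), Ass1 of 0.32 (0.25, adjusted p = 0.703) and Nags of 0.25 (0.21, adjusted p = 0.742).

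At 8 dpc, 0 of the 44 genes passed between the viruses, where 0.0246% of all genes passed. The median was −0.01, with 22 genes on each side of 0, and it was above 0 without the AAV8-null liver 1 (0.0047) or the AAV8-p21 liver 2 (0.0028) of 8 dpc. Of the 44, 1 gene had an unadjusted p under 0.05 (631 of all genes), which was Tdo2 with 373, 269 and 204 CPM in AAV8-p21 and 471, 389.7 and 1361 CPM in AAV8-null livers. The DESeq2 Wald test and limma voom called 0 of the 44. The groups did not overlap for 6 of the 44 genes (13.6%), against 10% of all genes. An interaction term asked whether the effect of the virus was another at 16 dpc than at 8 dpc, and in it 0 of the 44 and 0% of all genes passed. DESeq2 and limma voom also called 0, and an unadjusted p under 0.05 was reached by 2 of the 44 genes and 376 of all. The 2 were Gpt, with a change of 0.82 on the log2 scale (standard error 0.26, unadjusted p = 0.00643), and Gldc, with −0.95 (0.43, unadjusted p = 0.0451), and after adjustment neither passed. The stage changes of Gpt and Gldc in AAV8-null livers are therefore not shown to differ from those in AAV8-p21 livers.

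**Figure D5:**
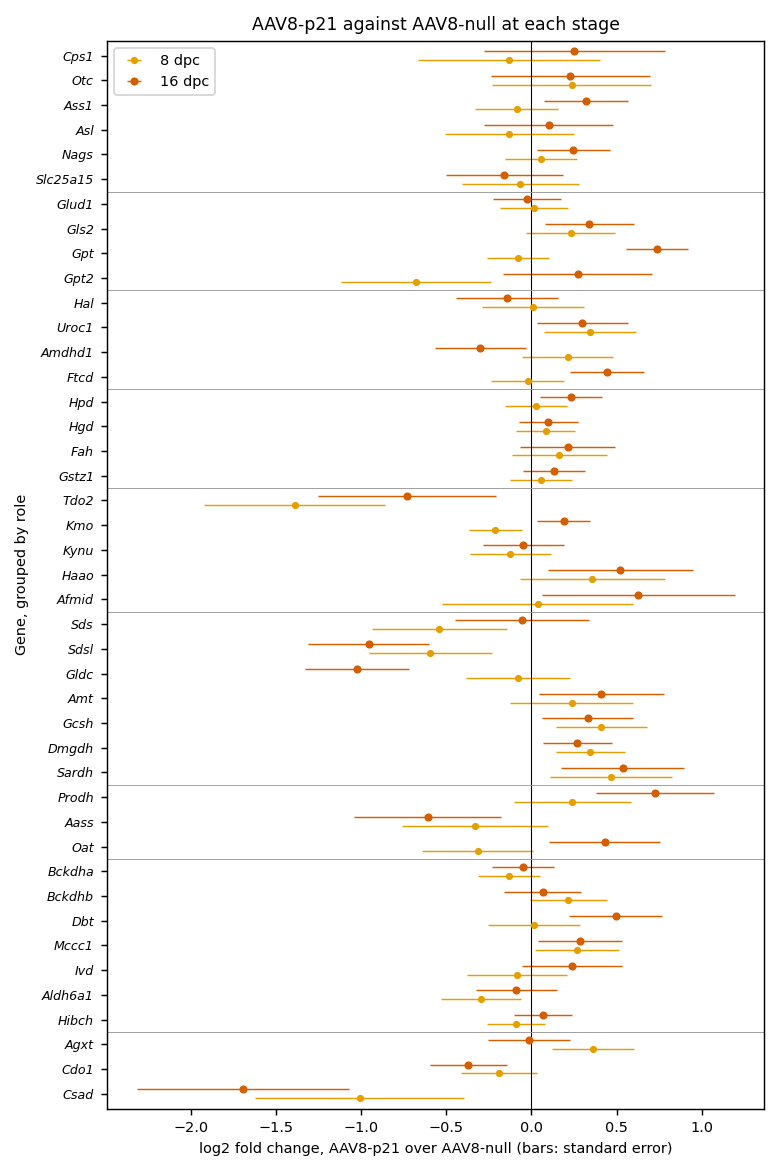
Log2 fold change of AAV8-p21 over AAV8-null livers for 43 of the 44 genes at 16 dpc (dark points) and 8 dpc (light points), with standard errors as bars and horizontal lines between roles. At 16 dpc 28 of the 43 points lie above 0, Gpt at 0.74, Gldc at −1.02 and Csad at −1.70, and none passed edgeR's quasi-likelihood test at either stage.

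None of 9 clock genes passed between the viruses at 16 dpc in edgeR's quasi-likelihood test, and 5 had an unadjusted p under 0.05. The DESeq2 Wald test called 0 of them and limma voom 2. The mean log2 CPM of 3 clock genes of 1 phase (Arntl, Npas2, Clock) minus that of 6 of the other (Dbp, Tef, Nr1d1, Nr1d2, Per3, Ciart) was 1.82, −1.24 and 1.50 with AAV8-null and −4.45, −4.33 and −2.58 with AAV8-p21 at 16 dpc, without overlap. It was 0.39, −3.97 and −4.05 in NP livers, 1.16, 1.28 and −1.04 with AAV8-null and 2.66, 2.27 and −2.88 with AAV8-p21 at 8 dpc. The liver with the highest value of this difference was the highest of its group in 4 of the 5 groups for 3 of the 44 genes (Gldc, Mccc1, Cdo1, 6.82%), against 4.56% of all genes in at least 4 groups. It was the lowest in 4 for another 3 (Sds, Sdsl, Aldh6a1, 6.82%), against 5.24% of all genes, and none of the 44 reached 5. These genes were picked after their values were seen. The hour of sampling is not given in the sources used here, and its part in the results was not tested.

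Livers of the same group also differed from each other in the urea cycle genes. The SD of log2 CPM within groups had a median of 0.358 over the 44 genes, from 0.114 for Kmo to 0.882 for Afmid, against 0.322 over all genes, and it was 0.765 for Cps1. The liver highest in Cps1 was also the highest of its group in at least 4 of the 5 groups for 8 of the other 43 genes (18.6%), against 8.87% of all genes tested. Among them were Asl, Ass1, Oat, Tdo2, Aass and Hal with 4 groups and Ftcd with 5. In at least 3 groups, the liver highest in Cps1 was the highest for 14 of the 43 genes (32.6%, against 27.5% of all genes). That liver was the lowest in at least 4 groups for 2 genes, Nags and Gcsh (4.65%, against 9.63% of all genes), and in at least 3 for 17 (39.5%, against 28.7%). The reference gene and the genes named were picked after their values were seen. An example is the AAV8-p21 library of 16 dpc with 6341 CPM of Cps1, which held 1408 CPM of Asl and 38.0 CPM of Nags, while the other 2 libraries of the group held 549 and 559 CPM of Asl and 45.5 and 42.2 CPM of Nags.

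Of 44 further enzymes of amino acid catabolism that were tested, 3 fell and 1 rose between NP and 16 dpc in AAV8-null livers, with a median log2 fold change of −0.20. Over all 12172 genes, 2.82% were lower and 3.71% higher, and the median was −0.03. Cth, cystathionine gamma-lyase, fell from 438, 674 and 842 CPM to 230.1, 162 and 280.1 CPM (a log2 fold change of −1.54, standard error 0.26, adjusted p = 0.00269). Aadat, which takes part in lysine and kynurenine breakdown, went from 89.0, 102 and 123 CPM to 53.9, 55.2 and 57.9 CPM (−0.91, 0.15, adjusted p = 0.00220). Bcat2, a branched-chain transaminase, went from 14.3 to 22.6 CPM in NP to at most 9.27 CPM (−1.37, 0.35, adjusted p = 0.0291). The groups did not overlap for any of these 3. Between 8 dpc and 16 dpc in AAV8-null livers, 1 of the 44 enzymes passed as higher and 3 as lower, where 3.16% of all genes were higher and 3.71% lower. For the same step in AAV8-p21 livers, 1 passed as higher and 1 as lower, where 2.09% of all genes were higher and 1.23% lower. The lower one in AAV8-p21 livers was Cth (−1.19, standard error 0.26, adjusted p = 0.0195).

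Of 8 tested genes of amino acid synthesis, 0 passed between NP and 16 dpc in AAV8-null livers, where 2.82% of all genes were lower and 3.71% higher. Of 10 targets of the amino acid response factor ATF4, Atf4 itself passed as higher (log2 fold change 0.72, adjusted p = 0.0495). Of 10 known regulators of these enzymes, Klf15, a transcription factor of amino acid catabolism, was the single one to pass, at 211, 184 and 174 CPM in NP and 134, 84.1 and 58.6 CPM at 16 dpc (a log2 fold change of −1.04, standard error 0.29, adjusted p = 0.0479). Klf15 was at 147, 162 and 99.3 CPM in AAV8-p21 livers at 16 dpc, where its difference from AAV8-null livers did not pass (log2 fold change 0.56, standard error 0.29, adjusted p = 0.556). Of 8 other periportal genes, Cyp17a1 passed as higher (1.73) and Etnppl as lower (−1.99). Of 9 pericentral genes, Slc1a2 passed as higher (0.87) and Lect2 (−1.96) and Cyp2e1 (−1.14) as lower, so both zones held genes of both directions.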

How the data were processed

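For each library the authors used 200 ng of liver RNA and a stranded mRNA kit, and trimmed the single-end reads with cutadapt 1.14. They aligned them to mm10 with HISAT2 2.1.0, and the deposited values are raw counts of uniquely mapped reads per protein-coding gene from HTSeq 0.12.4. The strand setting and the treatment of overlapping genes are not given in the sources used here, so genes with shared exon bases are uncertain. Besides those named above, these are Sds (21.3% of exon bases), Aldh6a1 (18.6%) and Gstz1 (9.14%), each with a gene on the other strand. The columns of the AAV8-p21 group at 16 dpc carry other numbers than the labels and were used without a number.

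Counts were tested with edgeR 4.0.16 in R 4.3.3 (TMM, filterByExpr with a minimum count of 10, quasi-likelihood test, all 15 libraries in 1 model with 10 residual degrees of freedom and a common coefficient of biological variation of 0.277). P-values were adjusted over 12172 genes by Benjamini-Hochberg, with a threshold of 0.05. Log values of levels use log2(CPM + 0.5). The comparisons were the stages within each virus, AAV8-p21 at 16 dpc with NP, the viruses at each stage, and the interaction of virus and stage. DESeq2 1.42.0 (the test named in the study's methods), limma 3.58.1 voom, other scalings and filters, and each library left out in turn were alternatives. The labels do not say that each library is a separate mouse, so p-values measure the spread between these samples.

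Values per library are given for the urea cycle genes, for members that passed and for the largest change of each role, and other members by range. The values of 1 member, which counts over the 44 genes include, and 1 further enzyme are not reported here. The members and lists were chosen with earlier results of these data known. The procedures were tested on simulated counts. Positions and exon overlaps come from GENCODE M21 on GRCm38, and figures were drawn with matplotlib 3.10.9.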

Additional observations from a re-analysis of the deposited data

How the results depend on the processing

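The count of members past the threshold depended on the test and the scaling, and the cause was not tested. With scaling to total counts alone it was 33, 32, 20 and 23 for 16 dpc against NP and against 8 dpc in AAV8-null livers and for AAV8-p21 livers at 16 dpc against 8 dpc and against NP, with medians of −0.93, −0.87, −0.71 and −0.72, where the median of all genes was shifted to −0.70, −0.70, −0.59 and −0.60. The shares of all genes that passed with this scaling are not given here, so these counts are not read as results about the members. With limma voom the count of members was 8 for 8 dpc against NP, 10 for 16 dpc against 8 dpc in AAV8-null livers, 7 and 11 for AAV8-p21 livers at 16 dpc against 8 dpc and NP, and 2 for the viruses at 16 dpc. Of all genes, limma voom called 1850, 1707, 1817, 2317 and 117 in the same order. The DESeq2 Wald test gave 9 for 16 dpc against 8 dpc in AAV8-null livers and 1 for the viruses at 16 dpc, among 1358 and 135 of all genes. In edgeR's test, a log2 fold change beyond 1 as a further condition left 3 of the 5 for 16 dpc against 8 dpc in AAV8-null livers. For AAV8-p21 livers at 16 dpc against NP, it was 1 with DESeq2 size factors or with at least 10 counts in every library and 0 with the compared groups alone. With single libraries left out, the count was 3 to 8, 0 to 9, 0 to 4 and 0 to 3 in the order of the first sentence on scaling, 0 in the other comparisons, and the medians were −0.31 to −0.16, −0.27 to −0.13, −0.17 to 0.02 and −0.24 to −0.13. The median for 8 dpc against NP was −0.12 to 0.02, that of the viruses 0.08 to 0.21 at 16 dpc and −0.07 to 0.0047 at 8 dpc, and that of the interaction 0.0038 to 0.20.

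Directions turned with scaling to total counts for Gldc from 8 dpc to 16 dpc (−0.11) and for Slc25a15 (−0.087) from NP to 16 dpc in AAV8-null livers. With single libraries left out, Cps1 and Asl, which passed no test, ranged from −0.70 to 0.077 and from −0.33 to 0.18, and were above 0 without the NP liver 3 or the AAV8-null liver 1 of 16 dpc (0.013 and 0.11). Replicate numbers did not pair the livers (mean correlation of deviations 0.00588 for 18 pairs of the same number and −0.00701 for 36 others). A fit of the 12 numbered libraries with the replicate number as a block gave 7 members for 16 dpc against NP and 6 for 16 dpc against 8 dpc, and 6 and 5 without the block, where Hal from NP to 16 dpc passed without the block and not with it. For the groups at 8 dpc both fits gave 0. No paired analysis was made for AAV8-p21 livers at 16 dpc because the numbers of their columns do not all match those of the labels.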
